A study of Mus musculus with 12 samples.

Results

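The genes described here are the V segments and constant regions of the T cell receptor alpha and beta chains. They were taken from the gene table by symbol, as every gene named Trav or Trbv together with Trac, Trbc1 and Trbc2, which gave 166 of 55450 genes. Of these, 128 were alpha V segments, 35 were beta V segments and 3 were constant regions. The annotation lists 20 of the Trav and 13 of the Trbv segments as pseudogenes, and 15 of the 163 V segments held no count in any library. RNA was sequenced from 3 CD4+ populations sorted from the thymus of mice carrying CD4-Cre and a Foxp3-GFP reporter, with 4 libraries each. Eos+ Tregs were the Foxp3+ cells with Ccr6 and Cxcr4 at the surface, Eos- Tregs were the Foxp3+ cells lacking both, and Tconv were the Foxp3- cells. Tregs are regulatory T cells and Tconv conventional ones. Eos, the protein product of Ikzf4, is a transcription factor, so the Eos names rest on a surface gate. All 3 groups carry the same transgenes, in which CD4-Cre is driven by a promoter active from the double-positive thymocyte stage. The labels give no age, sex or number of animals per library. Libraries with the same number share a library code, which was not tied to an animal, so the p-values reflect variation among libraries that may be technical. The series title concerns Eos in the homeostasis of recirculating thymic Tregs. Its 3 sorted groups allow 3 comparisons of receptor transcripts, Eos+ against Eos- Tregs and each of these against Tconv, and every pair of comparisons shares 4 libraries.

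Receptor genes are assembled in the thymus by recombination. A beta gene joins a V, a D and a J segment, and an alpha gene joins a V and a J segment, after which splicing attaches the rearranged exon to a constant region. A T cell usually expresses a single beta chain, whereas the alpha locus can rearrange repeatedly on both chromosomes, beginning with V segments near the J cluster and moving to distal ones. In a bulk sample the V segments of the mature transcripts therefore show which receptor transcripts the sorted cells carried, weighted by their amount. They are not a count of cells or receptors, and neither the J segment nor the junction between the segments was resolved here.

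The libraries held 23943689 to 37902528 expected counts, of which 15838 to 32015 (0.0473% to 0.0845%) fell on V segments. Labels were checked against transcripts in CPM, a gene's count relative to the library total after edgeR's TMM scaling. Cd4 was at 532 to 632 CPM in Eos+ Tregs, 545 to 692 CPM in Eos- Tregs and 849.7 to 1079 CPM in Tconv. Ikzf4 was at 292 to 334, 155 to 181 and 22.7 to 27.4 CPM, so the Eos- Tregs carried the transcript at an intermediate level. Foxp3 was at 55.0, 485, 819.6 and 655 CPM in Eos+ Tregs 1 to 4, at 53.3, 653, 862 and 760.1 CPM in Eos- Tregs and at 0.687 to 3.42 CPM in Tconv. Both Treg libraries numbered 1 thus held far less Foxp3 than the other Treg libraries. Libraries numbered 1 and 2 also carried most of the transcripts of double-positive thymocytes (8 markers, values given with the other cell types). Counts of calls are therefore given with and without these libraries.

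V segments differ greatly in how well a short read can tell them apart. Among the 163 V segments, 90 had a partner of at least 97% identity along the shorter sequence, and all 90 were alpha segments. The mouse alpha array contains repeated copies whose names carry d or n. Of the 90, 42 had a partner with no difference over the shorter sequence, and the 90 formed 35 groups, of which the largest held 7 Trav9 copies. The closest beta pair, Trbv13-2 and Trbv13-3, was 90.6% identical, so beta segments could be followed individually and alpha segments are followed as single copies, as near-identical copies summed and as families. RSEM, the program that made the deposited counts, divides a read that matches several copies among them. Between 48.5% and 62.0% of the 163 V values in a library, zeros included, lay more than 0.005 from a whole number.

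The beta segments whose share of V counts differed between groups are shown by the last 60 bases of their V exon, which lead into the junction with the D and J segments. Capitals mark the in-frame TGT codon nearest the 3′ end, which encodes the conserved cysteine that opens the third complementarity-determining loop, the part of the receptor that meets the peptide. Sequences are written 5′ to 3′ and were read from the GENCODE M21 transcripts (GRCm38, the mm10 build). The windows lie on chromosome 6, Trbv16 at chr6:41152171-41152230 on the plus strand, Trbv19 at chr6:41178989-41179048 on the plus strand, Trbv20 at chr6:41188918-41188977 on the plus strand, Trbv12-1 at chr6:41114008-41114067 on the plus strand, Trbv12-2 at chr6:41119305-41119364 on the plus strand, Trbv13-3 at chr6:41130526-41130585 on the plus strand, Trbv2 at chr6:41047936-41047995 on the plus strand, Trbv29 at chr6:41271822-41271881 on the plus strand and Trbv31 at chr6:41557693-41557752 on the minus strand. Trbv31 is the beta segment that lies beyond Trbc2 and is transcribed from the opposite strand.
Trbv16: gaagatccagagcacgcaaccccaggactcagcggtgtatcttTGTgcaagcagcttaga
Trbv19: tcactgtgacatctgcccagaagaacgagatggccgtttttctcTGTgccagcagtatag
Trbv20: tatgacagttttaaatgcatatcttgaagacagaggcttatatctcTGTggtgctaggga
Trbv12-1: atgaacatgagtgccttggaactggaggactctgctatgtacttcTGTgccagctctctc
Trbv12-2: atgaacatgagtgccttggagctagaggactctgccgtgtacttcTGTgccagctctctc
Trbv13-3: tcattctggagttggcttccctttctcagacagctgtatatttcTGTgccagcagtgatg
Trbv2: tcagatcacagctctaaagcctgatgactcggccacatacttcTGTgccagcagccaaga
Trbv29: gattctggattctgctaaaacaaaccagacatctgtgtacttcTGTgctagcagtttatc
Trbv31: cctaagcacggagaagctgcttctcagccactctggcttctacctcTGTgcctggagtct
From the codon's first base to the end of the exon the 9 windows hold between 14 and 17 bases, before any trimming during recombination.

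The alpha segments on which the results turn are Trav14 and Trav11 copies, shown in the same way on chromosome 14, Trav14d-1 at chr14:52856107-52856166 on the plus strand, Trav14-1 at chr14:53554499-53554558 on the plus strand and Trav11d at chr14:52824853-52824912 on the plus strand. Trav14d-1 has the same sequence as Trav14n-1, and all of Trav11d lies within Trav11, so each of those pairs cannot be told apart by a read inside it.
Trav14d-1: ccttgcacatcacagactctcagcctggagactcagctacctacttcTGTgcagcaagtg
Trav14-1: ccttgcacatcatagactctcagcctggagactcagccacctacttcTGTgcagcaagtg
Trav11d: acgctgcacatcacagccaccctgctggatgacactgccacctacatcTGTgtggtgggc
The next stretches of 110 bases show how finely other copies differ, with capitals at the bases that differ within a pair. Each is the stretch without gaps, inside a single exon, that holds the most differences of its pair, so it is not typical of the whole sequence. Trav11d (chr14:52824701-52824810) is set against the pseudogene Trav11n (chr14:53135466-53135575), which has 8 differences from it over the transcript (97.7% identity), 4 of them here.
Trav11d: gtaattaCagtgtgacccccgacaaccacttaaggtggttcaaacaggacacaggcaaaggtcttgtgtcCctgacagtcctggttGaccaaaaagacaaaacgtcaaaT
Trav11n: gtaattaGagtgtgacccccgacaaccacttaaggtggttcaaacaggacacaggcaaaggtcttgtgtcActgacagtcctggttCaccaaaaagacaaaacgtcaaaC
Trav14d-1 (chr14:52855939-52856048) is set against Trav14-1 (chr14:53554331-53554440), with 6 differing bases here.
Trav14d-1: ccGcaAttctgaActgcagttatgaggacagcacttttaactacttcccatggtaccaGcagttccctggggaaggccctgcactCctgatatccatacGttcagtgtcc
Trav14-1: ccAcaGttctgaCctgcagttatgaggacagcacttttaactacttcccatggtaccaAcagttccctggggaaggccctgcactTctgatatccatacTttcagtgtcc
In both pairs a read between the marked bases fits either copy, whereas a read across several of them does not.

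Trac, the alpha constant region (chr14:54220521-54224206, plus strand), was lower in both Treg populations than in Tconv. Its level was 852, 916, 815 and 839.9 CPM in Eos+ Tregs, 1029, 1101, 974 and 1071 CPM in Eos- Tregs and 1446, 1275, 1449 and 1659.8 CPM in Tconv. The 3 groups did not overlap, with Eos+ Tregs lowest and Tconv highest. Against Tconv the level fell by 0.77 on the log2 scale in Eos+ Tregs (SE 0.09, adjusted p = 2.41e-05) and by 0.48 in Eos- Tregs (SE 0.09, adjusted p = 0.00233), and both calls held in 21 of 21 alternatives. Adjusted p-values here come from edgeR's quasi-likelihood test on 15361 genes with Benjamini-Hochberg adjustment, and a gene is called at an adjusted p under 0.05. Between Eos+ and Eos- Tregs the Trac difference was smaller (log2 difference -0.29, SE 0.09, adjusted p = 0.0382), and 10 of 21 alternatives lost the call, with adjusted p from 0.00627 to 0.198. In a bulk sample, fewer cells that carry a transcript and less of it per cell cannot be told apart.

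The beta constant regions differed less. Trbc2 (chr6:41546730-41548352) was at 1183, 1262, 989 and 1053 CPM in Eos+ Tregs, 1337, 1376, 1193 and 1322 CPM in Eos- Tregs and 1477, 1593, 1456 and 1718 CPM in Tconv. Eos+ Tregs lay below every Tconv library, and the call held in 21 of 21 alternatives (log2 difference -0.48, SE 0.09, adjusted p = 0.00180), whereas neither other comparison of Trbc2 was called (adjusted p = 0.136 for Eos+ against Eos- Tregs and 0.0881 for Eos- Tregs against Tconv). Trbc1 (chr6:41538218-41539881), the upstream copy, was not called in any comparison, and its groups ranged from 582 to 836 CPM in Eos+ Tregs, 634 to 778 CPM in Eos- Tregs and 781 to 1025 CPM in Tconv. The share of Trbc1 within the summed Trbc counts was 40.1, 39.8, 37.0 and 38.2% in Eos+ Tregs and 35.1, 36.1, 34.7 and 34.2% in Eos- Tregs. All 4 Eos+ libraries were above all 4 Eos- libraries, while Tconv, at 34.6 to 38.7%, overlapped both. The copies are similar in sequence, so their split is less certain than their sum.

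Summed V segments gave the same order as the constant regions for the alpha chain. Alpha V counts were at 208, 214, 176 and 181 CPM in Eos+ Tregs, 274, 291, 243 and 258 CPM in Eos- Tregs and 348, 333, 314 and 369.5 CPM in Tconv. No group overlapped another, whereas the beta V sums did overlap, at 307 to 427, 352 to 431 and 407 to 479.6 CPM. Alpha segments therefore took 33.3 to 36.6% of V counts in Eos+ Tregs, below the 40.3 to 41.7% of Eos- Tregs and the 41.0 to 45.5% of Tconv. Set against the constant regions, V counts overlapped between groups. Alpha V counts per 100 Trac counts were 21.6 to 24.4, 24.0 to 26.7 and 21.7 to 26.1, and beta V counts per 100 Trbc counts were 18.4 to 20.4, 18.1 to 20.0 and 17.2 to 18.4.

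**Figure D1:**
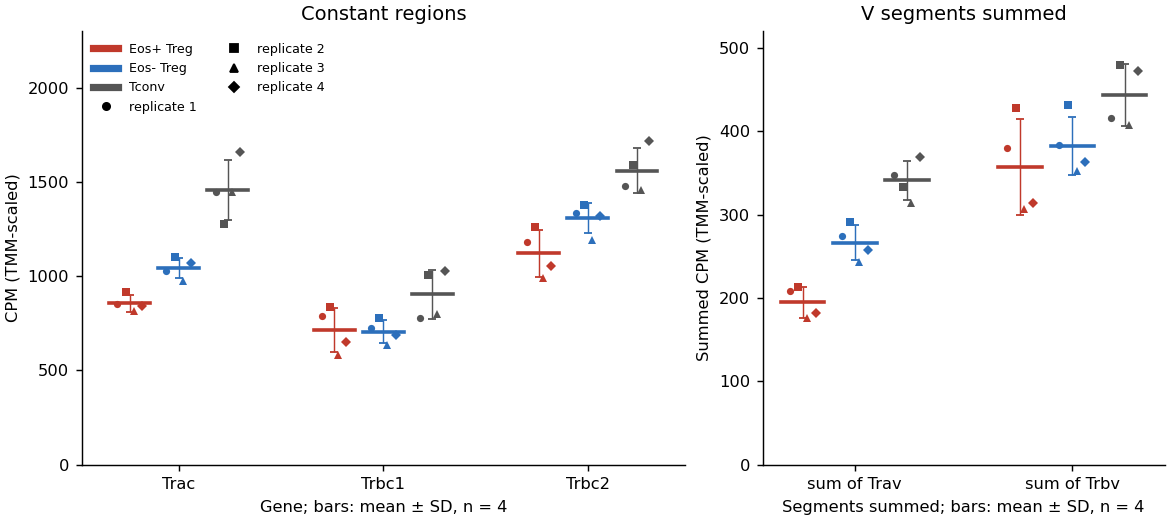
Levels in CPM after TMM scaling (vertical axes) of Trac, Trbc1 and Trbc2 and of the summed alpha and beta V segments, with each point a library and bars giving the mean ± SD of 4 libraries per group. Trac and the alpha V sum separate all 3 groups, from 815 to 916 CPM of Trac in Eos+ Tregs to 1275 to 1659.8 CPM in Tconv, while Trbc1 and the beta V sum overlap.

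By level, the single V segments called in Eos+ Tregs were nearly all lower. In Eos+ Tregs against Tconv, 42 of 124 tested V segments were called, 41 lower and 1 higher, where 30.3% of all tested genes were called, 13.0% lower and 17.3% higher. The 41 lower segments were 33.1% of those tested, and the V median was a log2 difference of -0.69 against -0.01 over all genes. They were 33 of 102 Trav and 8 of 22 Trbv segments. Identical alpha copies, such as Trav14d-1 and Trav14n-1, hold equal values and were counted separately, here and in the other counts of V segments. The single segment that rose was Trbv12-1 (log2 difference 0.62, adjusted p = 0.0489). Its call was lost in 11 of 19 alternatives. In Eos+ against Eos- Tregs 9 V segments were called, all lower (7.26% of those tested), against 16.3% of all genes in either direction and 6.45% lower. The share called lower was thus near that of all genes, and the share called in either direction was smaller. The median over the 124 segments was -0.39, against 0.003 over all genes, with Trav at a median of -0.51 and Trbv at -0.08. In Eos- Tregs against Tconv 4 segments fell (3.23%, with 14.6% of all genes called and 5.89% lower). Those called higher among all genes in these comparisons were 9.82% and 8.76%. The 4 segments were Trav11d (-2.98), Trbv29 (-0.75), Trav14d-3-dv8 (-0.70) and Trbv1 (-0.50), each as a log2 difference.

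Groups that do not overlap were counted as well. All Eos+ libraries were below all Eos- libraries for 30 of the 124 V segments (24.2%), where this held for 7.86% of all genes and any separation for 20.0%. They were below all Tconv libraries for 65 segments (52.4%, with 14.6% of all genes lower and 33.1% separated). Eos- Tregs were below Tconv for 32 segments (25.8%) and above for 1, with 9.64% of all genes lower and 20.1% separated.

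The level counts depended on the libraries used. Without the 3 libraries numbered 1 they were 5, 30 and 3 in the order Eos+ against Eos- Tregs, Eos+ Tregs against Tconv and Eos- Tregs against Tconv, and without the 6 libraries numbered 1 and 2 they were 1, 17 and 1. With the replicate number as a block, 12 segments rather than 4 were called between Eos- Tregs and Tconv, 11 lower and 1 higher. Every segment called with 12 libraries kept its direction in all 3 of these alternatives. Leaving out a single library took the first count to 5 (Eos- Treg replicate 2), the second to 27 (Eos+ Treg replicate 3) and the third to 2 (Eos- Treg replicate 4 or Tconv replicate 4). The shares of all genes called in these alternatives are not given here. Whether the changes in counts were particular to V segments was therefore not tested.

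Each segment was next expressed as its share of all V counts in the library, to set aside how much receptor RNA there was. The fit was repeated with that V total as the library size. On this scale a gene outside the receptor appears higher wherever V counts are low. All tested genes therefore had a median log2 difference of 0.25 for Eos+ against Eos- Tregs, 0.51 for Eos+ Tregs against Tconv and 0.26 for Eos- Tregs against Tconv, and those called lower were few. Since the adjustment runs over all these shifted genes, it is more lenient than by level. In Eos+ Tregs against Tconv, an edgeR p of 0.0201 became 0.0442 by share (Trav12-2). By level, a p of 0.0199 for another Trav12 segment became 0.0618. Share calls with an adjusted p near the threshold rest partly on this shift. In Eos+ against Eos- Tregs, 8 of 124 V segments were called, 3 higher (2.42%) and 5 lower (4.03%), beside 18.4% of all genes, 17.0% higher and 1.46% lower. In Eos+ Tregs against Tconv 22 were called, 8 higher (6.45%) and 14 lower (11.3%), beside 46.6% of all genes, 43.5% higher and 3.10% lower. In Eos- Tregs against Tconv 2 were called, Trbv12-1 higher and Trav11d lower, beside 18.8% of all genes, 16.9% higher and 1.88% lower. The V medians were -0.15, -0.18 and -0.02 in the same order. Groups did not overlap in share for 5 segments higher and 14 lower in Eos+ than in Eos- Tregs, for 10 higher and 27 lower in Eos+ Tregs than in Tconv, and for 5 each way in Eos- Tregs against Tconv. All tested genes separated in 21.5% (19.5% higher, 1.97% lower), 43.1% (39.7% higher, 3.37% lower) and 24.7% (21.6% higher, 3.14% lower) of cases.

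Among the beta segments, Trbv3 had the highest mean share, 7.24% over the 12 libraries, and it also came first per kb of annotated exon. Its shares were 6.72, 7.74, 8.53 and 8.16% in Eos+ Tregs, 5.54, 7.70, 8.85 and 7.58% in Eos- Tregs and 5.84, 6.23, 7.03 and 6.96% in Tconv, which overlapped and were not called. Trbv5, ranked 4 by share and 2 per kb, was not called either, at 4.30 to 5.69%, 3.61 to 4.56% and 3.78 to 5.40%. The segments that were called lay below these in the order per kb. On that measure, over all V segments, Trbv19 ranked 3, Trbv16 ranked 4, Trbv31 ranked 6 and Trbv2 ranked 7.

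Trbv16 (chr6:41151740-41152230) took a larger share of V counts in Eos+ Tregs than in either other group. Its shares were 5.54, 5.86, 5.41 and 5.55% in Eos+ Tregs, 3.74, 3.80, 3.79 and 3.79% in Eos- Tregs and 3.12, 3.28, 3.52 and 3.04% in Tconv. The lowest Eos+ library stood well above the highest of the 8 others, and the Eos- libraries lay within a narrow band above Tconv. The share was higher in Eos+ Tregs than in Eos- Tregs (log2 difference 0.56, SE 0.11, adjusted p = 0.00344) and than in Tconv (log2 difference 0.79, SE 0.11, adjusted p = 9.16e-05), calls that held in 18 and 19 of 19 alternatives, and the step between Eos- Tregs and Tconv was not called (adjusted p = 0.180).

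Trbv19 (chr6:41178375-41179048) showed the same order at a higher share. It took 8.04, 7.98, 7.18 and 7.32% in Eos+ Tregs, 5.86, 6.11, 5.90 and 5.91% in Eos- Tregs and 4.94, 5.47, 5.48 and 5.23% in Tconv, with no overlap between any groups. The Eos+ share was higher than that of Tconv (log2 difference 0.53, SE 0.10, adjusted p = 0.00101) and of Eos- Tregs (log2 difference 0.36, SE 0.10, adjusted p = 0.0273), but 9 of 19 alternatives lost the latter call (adjusted p from 0.000591 to 0.248). Trbv20 (chr6:41188273-41188977), the next functional segment along the array, took 3.22, 2.97, 2.29 and 2.46%, 1.95, 2.14, 1.59 and 1.90% and 1.72, 2.00, 1.75 and 1.86%. Every Eos+ library was above every other library, by a small margin. Trbv20 was called against Tconv (log2 difference 0.58, SE 0.16, adjusted p = 0.0110) and against Eos- Tregs (log2 difference 0.53, SE 0.16, adjusted p = 0.0392), the latter lost in 14 of 19 alternatives (adjusted p from 0.0106 to 0.237).

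Trbv12-1 separated both Treg groups from Tconv. Trbv12-1 (chr6:41113550-41114067) took 1.86, 3.43, 3.39 and 2.94% of V counts in Eos+ Tregs, 2.75, 2.52, 2.52 and 2.36% in Eos- Tregs and 1.41, 1.68, 1.16 and 1.02% in Tconv. All 8 Treg libraries were above all 4 Tconv libraries, the closest being Eos+ replicate 1, whereas the 2 Treg groups overlapped and were not called apart (adjusted p = 0.580). The share was higher in Eos+ Tregs (log2 difference 1.14, SE 0.22, adjusted p = 0.000889) and in Eos- Tregs (log2 difference 0.94, SE 0.22, adjusted p = 0.00928) than in Tconv, and both calls held in 19 of 19 alternatives. Trbv12-2 (chr6:41118851-41119364) took 2.88, 4.64, 3.60 and 2.95%, 2.41, 2.97, 2.50 and 2.34% and 1.93, 2.51, 1.82 and 1.70% and was called for Eos+ Tregs against Tconv (log2 difference 0.82, SE 0.19, adjusted p = 0.00317). Trbv13-3, named after its values were seen, rose in that comparison as well (log2 difference 0.44, SE 0.14, adjusted p = 0.0219), at 2.46 to 3.07% against 1.74 to 2.11%.

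Trbv2 moved the other way. This segment (chr6:41047340-41047995), close to the start of the beta array, took 4.12, 3.44, 3.80 and 4.55% in Eos+ Tregs, 5.97, 5.61, 5.69 and 6.81% in Eos- Tregs and 5.84, 5.92, 5.35 and 5.42% in Tconv. All 4 Eos+ libraries were below the 8 others, and the Eos- and Tconv libraries overlapped. Its share fell by 0.60 against Eos- Tregs (SE 0.13, adjusted p = 0.00554) and by 0.50 against Tconv (SE 0.13, adjusted p = 0.00549), both on the log2 scale and in 18 of 19 alternatives. By level it fell by 0.84 (adjusted p = 0.000510) and 1.02 (adjusted p = 3.46e-05). Trbv31 (chr6:41557691-41558452, minus strand) took 3.47, 3.42, 3.29 and 3.20%, 4.53, 4.03, 3.87 and 4.05% and 4.28, 4.41, 4.48 and 4.14%, with Eos+ Tregs below both other groups. Its share fell against Tconv (log2 difference -0.37, SE 0.11, adjusted p = 0.0161), and against Eos- Tregs it did not pass (log2 difference -0.30, adjusted p = 0.0840). Trbv29, which was also named after its values were seen, took 0.651, 0.591, 0.629 and 0.622% in Eos+ Tregs against 0.878, 1.06, 0.999 and 1.04% in Tconv and fell (log2 difference -0.67, SE 0.20, adjusted p = 0.0139).

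**Figure D2:**
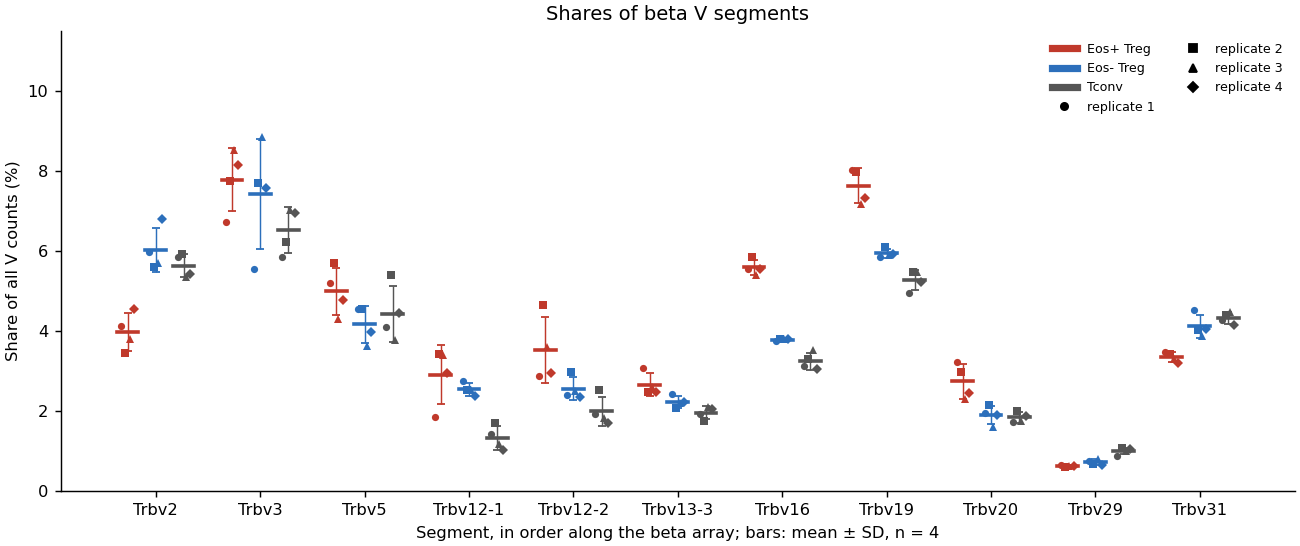
Share of all V counts in percent (vertical axis) for 11 beta segments ordered along the array from Trbv2 to Trbv31, with a point per library and bars giving the mean ± SD of 4 libraries per group. Eos+ Tregs are highest for Trbv16 (5.41 to 5.86%) and Trbv19 (7.18 to 8.04%) and lowest for Trbv2 (3.44 to 4.55%) and Trbv31 (3.20 to 3.47%), while Trbv3 and Trbv5 overlap.

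Shares of all V counts also carry the balance between the chains, since alpha segments took a smaller part of V counts in Eos+ Tregs. Beta segments were therefore also set against the beta V total alone. On that basis Trbv16 took 8.57, 8.78, 8.51 and 8.75% of beta V counts in Eos+ Tregs, 6.42, 6.36, 6.41 and 6.47% in Eos- Tregs and 5.72, 5.56, 6.24 and 5.42% in Tconv, still without overlap. It stayed higher in Eos+ Tregs than in Eos- Tregs (log2 difference 0.43, adjusted p = 0.0294) and in Tconv (log2 difference 0.59, adjusted p = 0.00174). Trbv19 stayed higher than in Tconv (log2 difference 0.34, adjusted p = 0.0281) but was not called against Eos- Tregs (log2 difference 0.23, adjusted p = 0.219), nor was Trbv20 (log2 difference 0.39, adjusted p = 0.158). Trbv2 remained lower in Eos+ than in Eos- Tregs (log2 difference -0.73, adjusted p = 0.00391), where Trbv31 was now called too (log2 difference -0.43, adjusted p = 0.0353). Trbv12-1 remained higher than in Tconv in Eos+ Tregs (log2 difference 0.95, adjusted p = 0.00451). Within beta, 1 segment was called higher and 2 lower in Eos+ against Eos- Tregs, 4 higher and 3 lower in Eos+ Tregs against Tconv, and 1 higher in Eos- Tregs against Tconv. Over all genes on the beta scale, 9.22% were called higher and 1.63% lower in the first comparison, 27.3% and 3.79% in the second and 10.7% and 1.75% in the third.

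The called beta segments were also placed along the array. From Trbv12-1 to Trbv20 (chr6:41113550-41188977, 13 annotated and 11 tested segments, a stretch chosen after the values were seen) 11 of 11 tested segments had a positive log2 difference of share in Eos+ against Eos- Tregs, 3 of them called, and 8 of 11 did so against Tconv, 6 of them called. Among the other 11 tested beta segments, 7 and 6 had a positive difference, and the calls, 1 and 3, were all lower. The stretch begins and ends at the first and last beta segments called higher by share, so higher calls outside it were excluded by that choice. The contrast in signs and medians is not independent of the choice either. All tested genes were called higher by share in 17.0% and 43.5% of cases in these comparisons, and lower in 1.46% and 3.10%. Positive signs are common on this scale, since the all-gene medians were 0.25 and 0.51, beside 0.19 and 0.44 in the stretch. These signs of the beta segments include the balance between the chains. Within the beta V total, 8 of the 11 segments of the stretch were positive against Eos- Tregs, 1 of them called, and 7 were positive against Tconv, 4 of them called, with median log2 differences of 0.06 and 0.24. The other 11 then had 3 and 4 positive differences, with 2 and 3 called lower and medians of -0.10 and -0.09. All genes on the beta scale were called higher in 9.22% and 27.3% of cases and lower in 1.63% and 3.79%. The evenness of beta use did not separate the groups. The effective number of beta segments, the reciprocal of the sum of squared shares within the beta chain, was 14.3 to 14.9 in Eos+ Tregs, 13.8 to 15.3 in Eos- Tregs and 14.3 to 15.0 in Tconv.

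Among the alpha segments, the Trav14 family took a smaller share of V counts in Eos+ Tregs. Its 9 segments together held 5.30, 5.30, 5.84 and 5.78% in Eos+ Tregs, 8.44, 8.12, 7.77 and 8.63% in Eos- Tregs and 10.0, 9.09, 9.32 and 10.3% in Tconv. The groups did not overlap, with Eos+ Tregs well below the rest and Eos- Tregs somewhat below Tconv. Summed to the family, the share was lower in Eos+ than in Eos- Tregs (log2 difference -0.57, adjusted p = 0.00187) and than in Tconv (log2 difference -0.80, adjusted p = 3.84e-05), while Eos- Tregs against Tconv was not called (log2 difference -0.23, adjusted p = 0.125). All 9 segments had a negative log2 difference in each of the 3 comparisons, and 3 were called in Eos+ against Eos- Tregs and 8 in Eos+ Tregs against Tconv. Among all tested genes, 1.46% and 3.10% were called lower by share in these comparisons. The 9 segments are not separate measurements, since similar copies share reads. Trav14d-1 and Trav14n-1 are identical and hold equal values, as do Trav14d-2 and Trav14n-2, and the 3 calls include both Trav14d-1 and Trav14n-1. These values include the lower share of the whole alpha chain in Eos+ Tregs. Of alpha V counts alone, the family took 15.0, 15.9, 16.0 and 15.8% in Eos+ Tregs, 20.2, 20.2, 19.0 and 20.8% in Eos- Tregs and 22.0, 22.2, 21.4 and 23.5% in Tconv, again without overlap. On that scale 8 of the 9 segments were negative in Eos+ against Eos- Tregs (Trav14-3 was at 0.16), 9 in Eos+ Tregs against Tconv and 6 in Eos- Tregs against Tconv, and 3 and 5 were called in the first pair of comparisons. All genes set against the alpha V total were called lower in 1.22% and 2.16% of cases there.

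Within the family, the identical copies Trav14d-1 (chr14:52855614-52856166) and Trav14n-1 (chr14:53166626-53167178) together held 1.29, 1.46, 1.47 and 1.55% of V counts in Eos+ Tregs, 2.51, 2.48, 2.66 and 2.83% in Eos- Tregs and 2.63, 2.61, 2.48 and 2.90% in Tconv. Eos+ libraries stood apart from the 8 others, which overlapped. For Trav14d-1 alone, whose values equal those of its copy, the share fell by 0.86 against Eos- Tregs (SE 0.17, adjusted p = 0.00424) and by 0.88 against Tconv (SE 0.17, adjusted p = 0.00113) on the log2 scale. Trav14-1 (chr14:53554022-53554558), the more distinct copy shown above, took 0.603, 0.591, 0.788 and 0.551%, 1.28, 0.990, 1.12 and 1.19% and 1.47, 1.11, 1.10 and 1.13%. Again every Eos+ library was lowest, and Trav14-1 was called against Eos- Tregs (log2 difference -0.85, SE 0.21, adjusted p = 0.0126) and Tconv (log2 difference -0.92, SE 0.21, adjusted p = 0.00272). Against Tconv, Trav14-2 (log2 difference -0.74, adjusted p = 0.0148), Trav14d-2 (log2 difference -1.0, adjusted p = 0.00950) and Trav14d-3-dv8 (log2 difference -0.75, adjusted p = 0.00965) fell as well. Leaving out libraries or changing the tool kept the Trav14-1 and Trav14d-1 calls in 17 to 19 of 19 alternatives. The name Trav14d-3-dv8 marks a segment that can also join to the delta chain.

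On the scale of all V counts, the alpha segments that rose were 2 Trav12 members, both in Eos+ Tregs against Tconv, and 11 of the 102 tested alpha segments fell there. Of 9 tested Trav12 segments, 4 had a positive and 5 a negative difference in that comparison. Set against the alpha V total, 8 were positive and 1 negative. The summed family was not called by share of all V counts (log2 difference 0.28, adjusted p = 0.0906). Trav12-2 is 96.95% identical to Trav12d-2, and Trav12-3 96.83% identical to Trav12d-3, so such copies may share reads. Trav12-2 (chr14:53616315-53616914) took 1.16, 1.15, 1.42 and 1.18% in Eos+ Tregs, 1.24, 1.01, 1.06 and 0.970% in Eos- Tregs and 1.08, 0.718, 0.881 and 0.640% in Tconv. Every Eos+ library exceeded every Tconv library, and Eos- Tregs lay between and overlapped both (log2 difference 0.57, SE 0.22, adjusted p = 0.0442). Trav12-3 (chr14:53621657-53622245), its neighbour, took 1.00, 1.00, 1.02 and 0.797%, 0.704, 0.585, 0.811 and 0.705% and 0.765, 0.667, 0.496 and 0.611%, and was called against Tconv (log2 difference 0.59, SE 0.23, adjusted p = 0.0475). These calls were lost in 11 and 13 of 19 alternatives. Within the alpha V total alone the differences were larger, with Trav12-2 at log2 difference 0.87, adjusted p = 0.00201 and Trav12-3 at log2 difference 0.89, adjusted p = 0.00338. Adjustment within the alpha V total is also more lenient, since 61.5% of all genes were called higher there in this comparison. On that basis Trav12-3 was also higher in Eos+ than in Eos- Tregs (log2 difference 0.66, adjusted p = 0.0283), and Trav14d-1 was lower there (log2 difference -0.64, adjusted p = 0.00840). Counted within the alpha V total, 1 alpha segment was higher and 5 were lower in Eos+ than in Eos- Tregs, 5 were higher and 8 lower in Eos+ Tregs than in Tconv, and 1 was lower in Eos- Tregs than in Tconv. The alpha medians were -0.08, 0.04 and 0.05 on this scale and -0.29, -0.26 and -0.04 on that of all V counts. All genes, set against the alpha total, were called higher in 40.3% and lower in 1.22% in the first comparison, in 61.5% and 2.16% in the second and in 27.2% and 1.95% in the third.

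Trav7-4 (chr14:53461099-53461738) was the alpha segment with the highest mean share, 2.58%, and its share was not called in any comparison (2.17 to 2.70% in Eos+ Tregs, 2.51 to 3.05% in Eos- Tregs and 2.33 to 2.66% in Tconv). By level it was lower in Eos+ Tregs than in Tconv (log2 difference -0.50, adjusted p = 0.0188), a call lost in 5 of 19 alternatives. Trav7-2 shows what the sharing of reads does to a single copy. Its own shares were 0.715, 0, 0 and 1.11% in Eos+ Tregs and 1.93, 1.27, 1.53 and 1.58% in Tconv, while together with Trav7d-2, from which it has no difference, they were 1.44, 1.51, 1.36 and 1.48% and 1.93, 1.62, 1.85 and 1.81%. The zeros thus lay in the division between copies and not in the sum. Trav7n-6, called lower in Eos+ Tregs than in Tconv, was listed at 0 in the 4 Eos+ libraries. Together with Trav7-6, from which it has 9 differences (97.6% identity), it held 0.213, 0.246, 0.348 and 0.244% there. Whether its zeros came from the division of reads was not tested. Trav9d-4, called lower against both other groups, was also listed at 0 in all Eos+ libraries and reached at most 0.0978% elsewhere. With V segments summed to 54 families, of which 38 were tested, 5 families were called by share in Eos+ against Eos- Tregs, 3 higher (7.89%) and 2 lower (5.26%), beside 17.0% and 1.46% of all genes in that fit. In Eos+ Tregs against Tconv 11 were called, 4 higher (10.5%) and 7 lower (18.4%), beside 43.7% and 3.06%. In Eos- Tregs against Tconv 1 was higher and 1 lower (2.63% each), beside 17.0% and 1.91%. The last were Trbv12 (log2 difference 0.62, adjusted p = 0.0293) and Trav11 (log2 difference -2.10, adjusted p = 0.00352).

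**Figure D3:**
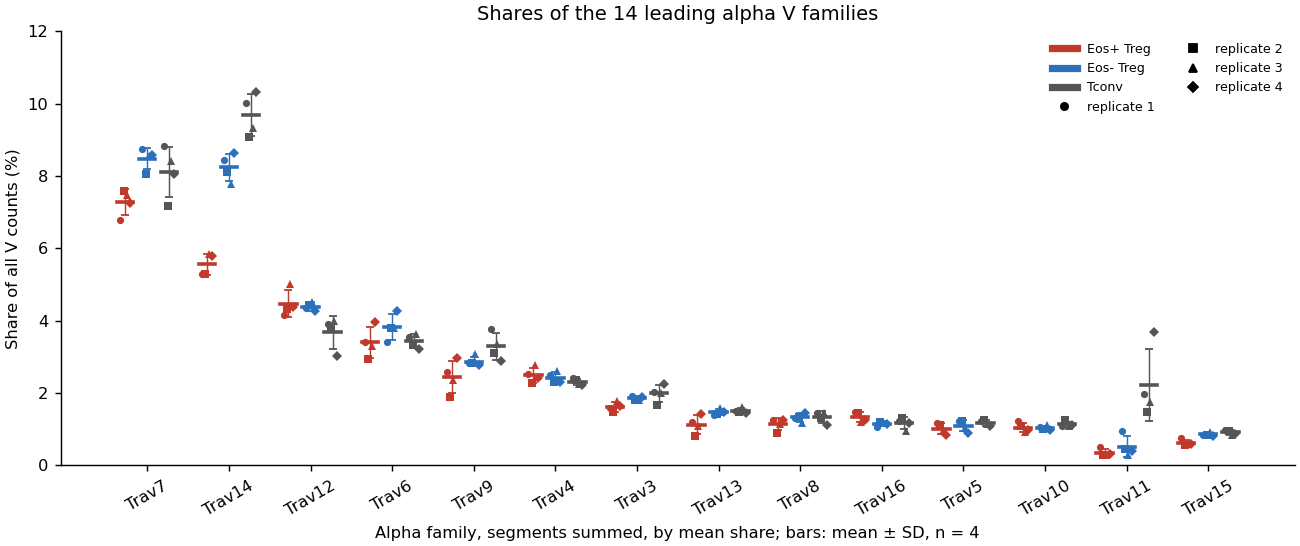
Share of all V counts in percent (vertical axis) for the 14 leading Trav families, copies summed, with a point per library and bars giving the mean ± SD of 4 libraries per group. Trav14 is lowest in Eos+ Tregs, at 5.30 to 5.84%, and highest in Tconv, at 9.09 to 10.3%, whereas families such as Trav4 and Trav6 overlap.

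Position along the alpha array gave a smaller contrast. The array runs from Trav1 (chr14:52427928-52428876), farthest from the J cluster, to Trav23 (chr14:53977153-53977678), nearest to it. The main measure was the share of the 64 segments nearest the J cluster, the proximal side of an even split of the 128. They took 62.6 to 68.3% of alpha V counts in Eos+ Tregs, 58.4 to 65.1% in Eos- Tregs and 57.7 to 63.6% in Tconv, with overlap between all groups. In an alternative, the nearest 43 segments took 46.8 to 52.0%, 42.4 to 47.8% and 38.2 to 45.1%. There Eos+ Tregs lay above Tconv without overlap and overlapped Eos- Tregs. Repeated copies lie in several parts of the array, so a read divided among copies blurs this measure. Trav1 held 0.152 to 0.255% of V counts in Eos+ Tregs, 0.186 to 0.375% in Eos- Tregs and 0.278 to 0.336% in Tconv. Trav23 reached at most 0.00534%.

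Trav11 copies took a far smaller share of V counts in both Treg groups than in Tconv. Trav11 joined to Traj18 forms the invariant alpha chain of NKT cells, which recognise lipids on CD1d and can be CD4+ and Foxp3-. Trav11d (chr14:52824357-52824912) took 0.464, 0.179, 0.278 and 0.266% of V counts in Eos+ Tregs, 0.348, 0.401, 0.244 and 0.308% in Eos- Tregs and 1.97, 1.44, 1.72 and 3.41% in Tconv. All 8 Treg libraries were below all 4 Tconv libraries, Tconv replicate 4 was highest, and the Treg groups overlapped. The share was 7.18-fold lower in Eos+ Tregs (log2 difference -2.84, SE 0.36, adjusted p = 3.95e-05) and 6.53-fold lower in Eos- Tregs (log2 difference -2.71, SE 0.36, adjusted p = 0.000246) than in Tconv, and both calls held in 19 of 19 alternatives. Trav11 (chr14:53519303-53519859), which contains the Trav11d sequence, was listed at 0.567% in Eos- replicate 1, at 0.269% in Tconv replicate 4 and at 0 in the other 10 libraries. The limit that a count of 0 allows, 3 counts of the V total, is 0.00937% to 0.0189% across libraries and covers counting error only. With all Trav11 copies summed the shares were 0.518, 0.273, 0.296 and 0.308%, 0.947, 0.446, 0.285 and 0.398% and 1.98, 1.47, 1.76 and 3.69%, and both Treg groups remained lower than Tconv (log2 difference -2.67, adjusted p = 0.000211 for Eos+ Tregs and log2 difference -2.10, adjusted p = 0.00352 for Eos- Tregs).

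The partner J segment was barely sampled. Traj18 held 0, 0, 0 and 1 expected counts in Eos+ Tregs, 0, 1, 0 and 1 in Eos- Tregs and 1, 1, 4 and 5 in Tconv, and the 76 annotated J and D segments together held 2 to 17 counts per library, so no segment of this kind was tested. Traj33, which Trav1 joins in the invariant chain of MAIT cells, was at 0 in every library, where a count of 0 allows up to 0.0792 to 0.125 CPM before TMM scaling. The share of Trav1 was not called in any comparison, though its level was lower in Eos+ Tregs than in Tconv (log2 difference -1.11, adjusted p = 0.0220, lost in 5 of 19 alternatives).

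Markers of NKT and innate-like T cells went in both directions. Of 8 tested markers, 4 were lower and 2 higher in Eos+ Tregs than in Tconv, beside 13.0% and 17.3% of all genes. In Eos- Tregs 3 were lower (37.5%) and 2 higher (25.0%) than in Tconv, beside 5.89% and 8.76% of all genes. Between Eos+ and Eos- Tregs 0 were called by edgeR, DESeq2 or limma-voom, and 0 had an unadjusted p under 0.05 in edgeR. Zbtb16, the transcription factor that defines the NKT lineage, was at 0, 0, 0.146 and 0 CPM in Eos+ Tregs, 0.457, 0.342, 0.104 and 0 CPM in Eos- Tregs and 3.73, 4.86, 4.35 and 9.54 CPM in Tconv. Klrb1c, which encodes NK1.1, was at 4.80, 0.660, 1.20 and 0.880, 12.3, 4.73, 0.795 and 1.18 and 50.6, 20.9, 37.5 and 98.4 CPM. Both were lower in Eos+ Tregs (adjusted p = 0.000513 and 0.00168) and in Eos- Tregs (adjusted p = 0.00748 and 0.0177) than in Tconv. Tconv replicate 4, highest for Trav11d, was highest for both. The other Tconv libraries did not keep a common order, since replicate 1 came next for Trav11d and Klrb1c but was lowest for Zbtb16. Klrk1 and Tbx21 were lower in Eos+ Tregs too. The 2 higher markers, Il2rb (log2 difference 2.48, adjusted p = 2.39e-06) and Slamf1 (log2 difference 0.95, adjusted p = 1.55e-05 for Eos+ Tregs against Tconv), are also expressed by Tregs. Eomes (log2 difference 1.73, adjusted p = 0.203) and Cd244a (log2 difference 0.59, adjusted p = 0.754) did not pass in that comparison. The summed list was higher in Tregs (1278 to 1843 CPM in Eos+ Tregs, 1114 to 1756 CPM in Eos- Tregs and 338 to 679 CPM in Tconv). The part of NKT cells among the sorted Tconv in the Trav11d difference was not tested.

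**Figure D4:**
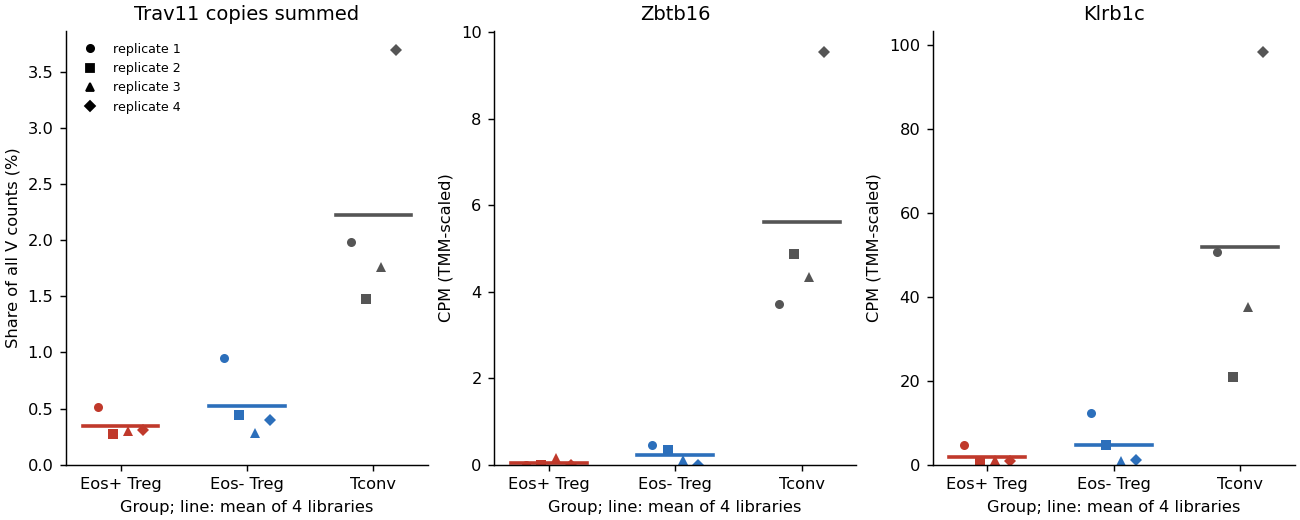
Summed share of V counts of the Trav11 copies in percent, and levels in CPM of Zbtb16 and Klrb1c, 2 of the 4 markers of the list that were lower in Eos+ Tregs (vertical axes), with a point per library and a line at the mean of 4 libraries per group. Tconv are highest in all 3 panels, with Trav11 copies at 1.47 to 3.69% of V counts against 0.273 to 0.518% in Eos+ Tregs.

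Across all V segments, median distances between groups exceeded those within groups. The distance between a pair of libraries was taken as the percentage of V counts that would have to move between segments, near-identical copies summed, to make their shares equal. Within groups the median distance was 7.92% (range 6.05% to 8.82%) for Eos+ Tregs, 6.44% (range 5.07% to 7.80%) for Eos- Tregs and 6.78% (range 5.76% to 7.32%) for Tconv. Between groups it was 11.8% (range 8.48% to 14.5%) for Eos+ against Eos- Tregs, 15.4% (range 12.7% to 18.8%) for Eos+ Tregs against Tconv and 9.20% (range 7.35% to 11.4%) for Eos- Tregs against Tconv. Every Eos+ to Tconv pair was farther apart than any pair within a group, and the nearest library belonged to the same group for 12 of 12 libraries. By this measure Eos- Tregs were closer to Tconv than to Eos+ Tregs in the median, although the ranges overlapped. The distance includes the balance between the chains. The alpha share of V counts alone differed by a median of 5.20 percentage points between Eos+ and Eos- libraries, 7.93 between Eos+ and Tconv libraries and 2.59 between Eos- and Tconv libraries. Measured within the alpha chain, the median distances for these pairs of groups were 11.7%, 14.8% and 9.89%, and within the beta chain they were 10.2%, 13.6% and 7.78%, so the order was the same on each scale. Inside Eos+ Tregs, Eos- Tregs and Tconv the medians were 9.18%, 7.19% and 8.46% for alpha and 6.86%, 5.68% and 4.76% for beta. For alpha, the range between Eos- Tregs and Tconv (7.66% to 14.7%) overlapped that inside Tconv (6.25% to 10.0%). The nearest library was of the same group for 11 of 12 libraries within alpha and 12 of 12 within beta. These distances are a description without a test.

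**Figure D5:**
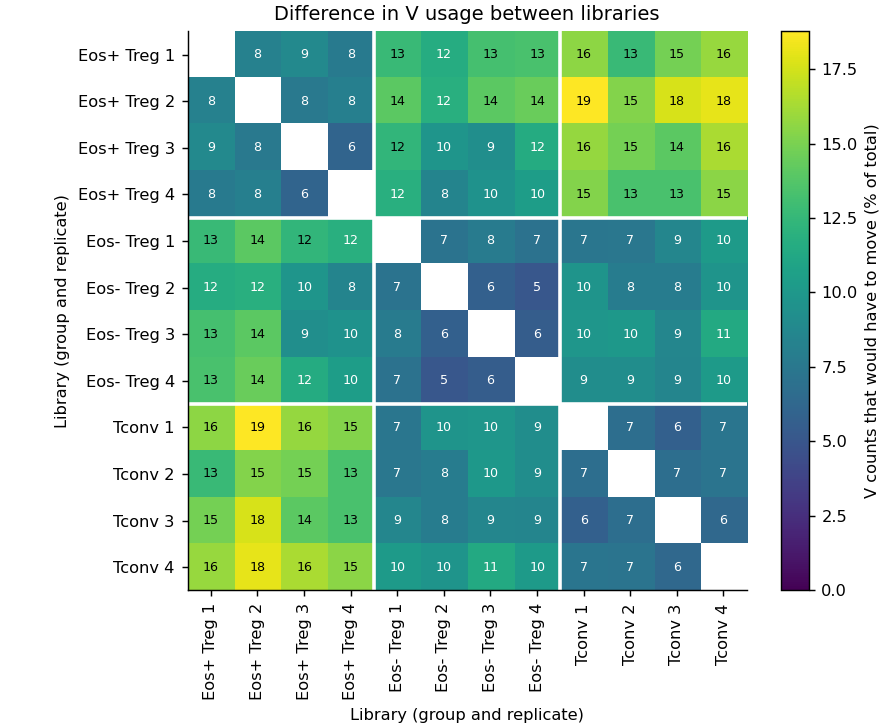
Map of the distance between each pair of the 12 libraries, rows and columns ordered by group, with colour giving the percentage of V counts that would have to move to equalise their segment shares. The blocks within groups are the darkest, with medians of 6.44% to 7.92%, and the block of Eos+ Tregs against Tconv runs to green and yellow, with a median of 15.4%.

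Several genes that work with the receptor were lower in Eos+ Tregs than in Tconv, as Trac was. Of 12 tested genes of the receptor complex, its coreceptors and its proximal signalling, 3 were lower in Eos+ than in Eos- Tregs (25.0%, beside 6.45% of all genes), 8 in Eos+ Tregs than in Tconv (66.7%, beside 13.0%) and 4 in Eos- Tregs than in Tconv (33.3%, beside 5.89%). The others, 9, 4 and 8, were not called, and none was called higher. The list medians were log2 differences of -0.21, -0.49 and -0.22, beside 0.003, -0.01 and -0.01 over all genes. Cd247, the zeta chain that couples the receptor to ZAP-70, was at 348, 304, 345 and 323 CPM in Eos+ Tregs, 492, 495, 494 and 479.7 CPM in Eos- Tregs and 566, 547, 594 and 574 CPM in Tconv. The 3 groups did not overlap, and each step was called, with adjusted p = 9.77e-05 for Eos+ against Eos- Tregs (-0.57) and 0.0372 for Eos- Tregs against Tconv (-0.22). Lck, the kinase that starts receptor signalling, was at 1895 ± 115 CPM (mean ± SD, n = 4) in Eos+ Tregs, 2405 ± 215 CPM in Eos- Tregs and 2635 ± 53.9 CPM in Tconv, and Cd4 was lower in both Treg groups than in Tconv (log2 differences -0.73 and -0.58). Themis, a signalling adaptor of developing T cells, differed in all 3 comparisons (-1.08, -1.76 and -0.68). Cd247 and Themis were named after their values were seen.

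Few genes of the machinery that builds the receptor genes were called. Of 16 tested genes of recombination and end joining, 1 was higher in Eos+ than in Eos- Tregs (Xrcc5, log2 difference 0.58, adjusted p = 0.00783). Against Tconv, Polm was higher in Eos+ Tregs (log2 difference 0.87, adjusted p = 0.000190) and in Eos- Tregs (log2 difference 0.52, adjusted p = 0.0151), with 1 gene lower in each case, Paxx in Eos+ Tregs and Hmgb1 in Eos- Tregs. Each of these counts is 6.25% of the list, while 9.82%, 17.3% and 8.76% of all genes were called higher in the 3 comparisons and 6.45%, 13.0% and 5.89% lower. Xrcc5 encodes a Ku subunit, and Polm a polymerase of end joining. Of 14 tested transcription factors and chromatin proteins that act at the receptor loci, 6 were lower in Eos+ than in Eos- Tregs (42.9%), 8 were lower (57.1%) and 2 higher (14.3%) in Eos+ Tregs than in Tconv, and 5 were lower (35.7%) and 2 higher (14.3%) in Eos- Tregs than in Tconv, beside the same shares of all genes. Satb1, a chromatin organiser, was at 415 ± 90.0 CPM (mean ± SD, n = 4) in Eos+ Tregs, 1467 ± 208 CPM in Eos- Tregs and 3122 ± 439 CPM in Tconv, and was called in all 3 comparisons (adjusted p = 1.88e-05, 1.16e-07 and 0.000606). Lef1, an alpha enhancer factor, fell along the same order (303 ± 36.4, 668 ± 88.0 and 1183 ± 115 CPM). Tcf7, its relative, was lower than in Tconv in both Treg groups (log2 differences -1.21 and -0.99). Gata3 and Myb were the factors higher in Tregs than in Tconv (0.57 and 0.85 in Eos+ Tregs). These factors have many targets, and no link from their levels to the segments was tested.

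Other cells that carry or lack receptor transcripts were checked by their markers. None of 8 tested double-positive thymocyte markers was called in any comparison by edgeR, DESeq2 or limma-voom, and 0 had an unadjusted p under 0.05. Their spread between libraries was wide, and the summed list was at 377, 90.8, 58.5 and 54.0 CPM in Eos+ Tregs, 394, 182, 36.6 and 37.4 CPM in Eos- Tregs and 300.1, 321, 78.8 and 87.3 CPM in Tconv. Rag1, the recombinase, was at 28.0, 6.14, 1.17 and 1.50 CPM in Eos+ Tregs, 35.6, 15.6, 0 and 0.0574 CPM in Eos- Tregs and 26.0, 44.4, 1.71 and 3.50 CPM in Tconv. The libraries numbered 1 were high in every group, and number 2 in Eos- Tregs and Tconv. Without the 6 libraries numbered 1 and 2, the segments called by share were 0 for Eos+ against Eos- Tregs (8 with an unadjusted p under 0.05 in edgeR, 2 libraries per group), 9 for Eos+ Tregs against Tconv and 2 for Eos- Tregs against Tconv. There Trbv16 had log2 difference 0.53, adjusted p = 0.0989 and Trbv2 had log2 difference -0.58, adjusted p = 0.0921 for Eos+ against Eos- Tregs. Without the 3 numbered 1 alone, the counts were 5, 18 and 2. Whether calls over all genes fell alike in these smaller sets of libraries was not tested.

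Of 6 tested markers of B cells, which lack rearranged receptor alpha and beta genes, 3 were called higher in Eos+ than in Eos- Tregs (beside 9.82% of all genes) and 2 higher than in Tconv (33.3%, beside 17.3%). The 7 listed genes summed to 1408 to 1944 CPM in Eos+ Tregs, 177 to 529.9 CPM in Eos- Tregs and 237 to 434 CPM in Tconv, mostly through Ighm, at 1656, 1548, 1330.0 and 1559.7 CPM in Eos+ Tregs and 172 to 443 CPM in Eos- Tregs. Pax5, a transcription factor of the B lineage, was too low to be tested, at 0 to 0.376 CPM in Eos+ Tregs, 0 to 0.115 CPM in Eos- Tregs and 0 to 0.639 CPM in Tconv. The part of B cells in the lower receptor levels was not tested. Of the gamma-delta T cell list, 8 genes were tested, and 1 (12.5%, beside 9.82% of all genes) was called higher in Eos+ than in Eos- Tregs (Maf, which other T cells express as well). Against Tconv, Maf was higher (12.5%, beside 17.3%) and 2 genes were lower (25.0%, beside 13.0%) in Eos+ Tregs, among them Trdc, the delta constant region (log2 difference -1.14, adjusted p = 0.0380), which lies within the alpha locus. The list summed to 40.2 to 122 CPM in Eos+ Tregs, 27.8 to 111 CPM in Eos- Tregs and 72.1 to 121 CPM in Tconv, which overlapped.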

How the data were processed

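The labels' protocols describe low-input libraries, in which 1 ng of RNA was copied by template switching and tagmented, steps that keep no strand. The authors deposited expected counts per gene, a table of RSEM estimates not scaled for depth or length. The submitters' processing notes name cutadapt 1.18, STAR 2.7.0f, RSEM 1.3.1 and the mm10 genome, and the annotation release was not given in the sources used here. Positions and sequences came from GENCODE M21 (GRCm38), in which all 55450 gene IDs were found. A read that fits several V segments is divided by RSEM, so similar alpha copies are less certain than their sums, and the lack of strand leaves overlapping genes unresolved.

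Expected counts were rounded and fitted over the whole table with edgeR 4.0.16 (R 4.3.3; TMM factors, filterByExpr, 15361 genes kept, 12 libraries with 1 mean per group, quasi-likelihood F test, Benjamini-Hochberg adjustment over all tested genes, threshold 0.05). The share fit used each library's V total as its library size. A total of 124 V segments and the 3 constant regions passed the filter. The level fit was tested on simulated counts for Eos+ against Eos- Tregs, and the share fits were not tested in this way. DESeq2 1.42.0 and limma-voom (limma 3.58.1) were alternatives, and summaries and figures were made in Python 3.11.15. Replicate libraries differed by more than counting noise (chi-square per degree of freedom from 24.3 to 75.0 in 18 pairs). Libraries of the same number share a code in the labels and deviated together, with correlations of 0.138 to 0.318 in 12 pairs against -0.226 to 0.07 in 36 pairs of different numbers, so the number was used as a block in an alternative. Other alternatives were DESeq2 size factors, no low-count filter, leaving out libraries, V families summed and shares within each chain. The alternatives are not independent of the main fit or of each other. Leaving out a library outside the compared groups changes neither of their means, and DESeq2 size factors gave the same V segment calls by level. Leaving out the libraries numbered 1 and 2 and summing segments of 97% identity were chosen after seeing the data.

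The members and lists were chosen with earlier results of these data known. Named segments were the constant regions, the 10 Trav and 6 Trbv segments of highest mean share, up to 6 per direction and comparison among those called by share, without overlap and at 0.1% or more, the invariant receptor segments, the ends of the arrays, and up to 4 members of each list by mean CPM. Named outside this rule, after their values were seen, were Trbv13-3, Trbv29, Trbv1, Trav14-3, Trav7n-6, Trav9d-4, Eomes, Cd244a, Cd247, Themis, Xrcc5, Polm, Paxx, Gata3, Myb and those among the other markers given for counts of 5 or fewer.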

Additional observations from a re-analysis of the deposited data

Results flagged for a closer look

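Each of the 128 groups of 4 libraries examined was checked for a library far from the other 3, which chance gives in about 1 in 20 groups, and 8 were found. Trav12-2 took 1.42% of V counts in Eos+ Treg replicate 3 and 1.15% to 1.18% in the other Eos+ libraries. Trav12-3 took 0.797% in Eos+ Treg replicate 4 and 1.00% to 1.02% in the others. Trav14-1 took 1.47% in Tconv replicate 1 and 1.10% to 1.13% in the other Tconv libraries, a difference on the side away from Eos+ Tregs. Trav11 was listed at 0.567% in Eos- Treg replicate 1 and at 0.269% in Tconv replicate 4, and at 0 in the other libraries of both groups, where Trav11d held counts. Trav23, the V segment nearest the J cluster, was at 0.00534% in Eos+ Treg replicate 1 and 0.00462% in Eos- Treg replicate 4, and at 0 in the other libraries of those groups. The 5 leading beta segments together took 47.9% of beta V counts in Eos+ Treg replicate 4 and 45.8% to 46.0% in the other Eos+ libraries.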

How the results depend on the processing

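The number of V segments called by level moved by over 1.5 times in these alternatives. For Eos+ against Eos- Tregs (9) it was 14 with DESeq2, 5 without the 3 libraries numbered 1, 1 without the 6 numbered 1 and 2, and 5 to 10 with 1 library left out. For Eos+ Tregs against Tconv (42) it was 25 with no low-count filter, 17 without the 6 libraries, 20 of 38 with families summed, and 27 to 39 with 1 library left out. For Eos- Tregs against Tconv (4) it was 10 with DESeq2, 8 with limma-voom, 2 with no low-count filter, 12 with the replicate block, 1 without the 6 libraries, and 2 to 5 with 1 left out. By share, Eos+ against Eos- Tregs (8) gave 5 without the libraries numbered 1, 0 without the 6 libraries (edgeR, 8 with an unadjusted p under 0.05), 5 of 38 with families summed, and 5 to 8 with 1 left out, lowest without Eos- Treg replicate 3. Eos+ Tregs against Tconv (22) gave 9 without the 6 libraries, 11 of 38 with families summed and 18 to 23 with 1 left out. Eos- Tregs against Tconv (2) gave 4 with DESeq2 and 2 in each fit with 1 library left out. Families and the smaller sets of libraries have fewer units or samples to test, and for the other moves the cause was not tested. With the replicate block the other counts were 8 and 40 by level and 9, 23 and 2 by share, within 1.5 times of the values without it. Trac by share, not called between Eos+ and Eos- Tregs, changed sign without the 6 libraries (log2 difference 0.0084). Without them 27 of 55 results for single genes lost their call, and without the 3 numbered 1 this was 13. The depth of 15838 to 32015 V counts limits the segments of low share, and the nearly identical alpha copies limit single segments more than families.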
